A study of Rattus norvegicus with 2 samples.

Results

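The mitochondrial ribosomal proteins are the nucleus-encoded protein components of the ribosome inside mitochondria. They were taken as all genes whose symbol in the probe annotation, updated by Entrez identifier, begins with Mrpl (large subunit) or Mrps (small subunit) followed by a digit. This gave 59 of the 13337 genes with a named probe, each from 1 probe. RefSeq lists 78 protein-coding rat symbols of this form, and the 19 without a named probe, among them Mrpl12, Mrps16 and Mrps22, were not analysed here.

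The data were 2 Illumina rat bead arrays, 1 labelled Mock and 1 labelled EA (electroacupuncture, the electrical stimulation of inserted needles). Both held RNA of skeletal muscle from male Wistar rats aged 8 to 10 weeks. All were diabetic after streptozotocin, a toxin of pancreatic beta cells. The EA rats had needles at ST36, a point on the lower leg, with 5 min of needling and then 60 min of current at 15 Hz and 10 mA. The treatment text is the same for both samples, so the handling of the Mock rats, the muscle taken, the delay to sampling and the number of rats pooled could not be read from it. With 1 array per group there was no replicate, no test and no p-value. The effect of EA and other differences between these animals or samples cannot be told apart, and in whole muscle fewer cells of a type cannot be told apart from less RNA per cell.

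Mitochondria keep a small genome that encodes core subunits of the respiratory chain and of ATP synthase, together with the ribosomal and transfer RNAs needed to translate them. The proteins of the mitochondrial ribosome are instead made in the cytosol and imported. Some descend from proteins of the bacterial ribosome and others were gained in mitochondria, and skeletal muscle, rich in mitochondria, depends on this machinery for its oxidative capacity.

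Transcripts of this family were readily measured. At a detection p-value under 0.01 on both arrays, 56 of the 59 members (94.9%) were detected, against 37.8% of all 13337 genes. Their median unnormalized signal was 1631 on the Mock array, against 466 for the 5047 genes detected on both arrays. Among these 5047, the median member stood at percentile 78.5 of mean signal, and 49 of the 56 lay above the median gene. Signals of different probes also depend on the probe, so this is a statement on measurability and not an order of transcript levels. The probes not detected were those of Mrpl14, Mrpl30 and Mrps31, at 146, 112 and 115 for Mock and at 158, 114 and 133 for EA. On each array the median probe with a detection p over 0.5 read 110 and 115 respectively, so these members were near background on both arrays and no fold is given for them. Of these, only Mrpl14 had a detection p under 0.05 on both arrays. No member was detected on only 1 array.

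**Figure D1:**
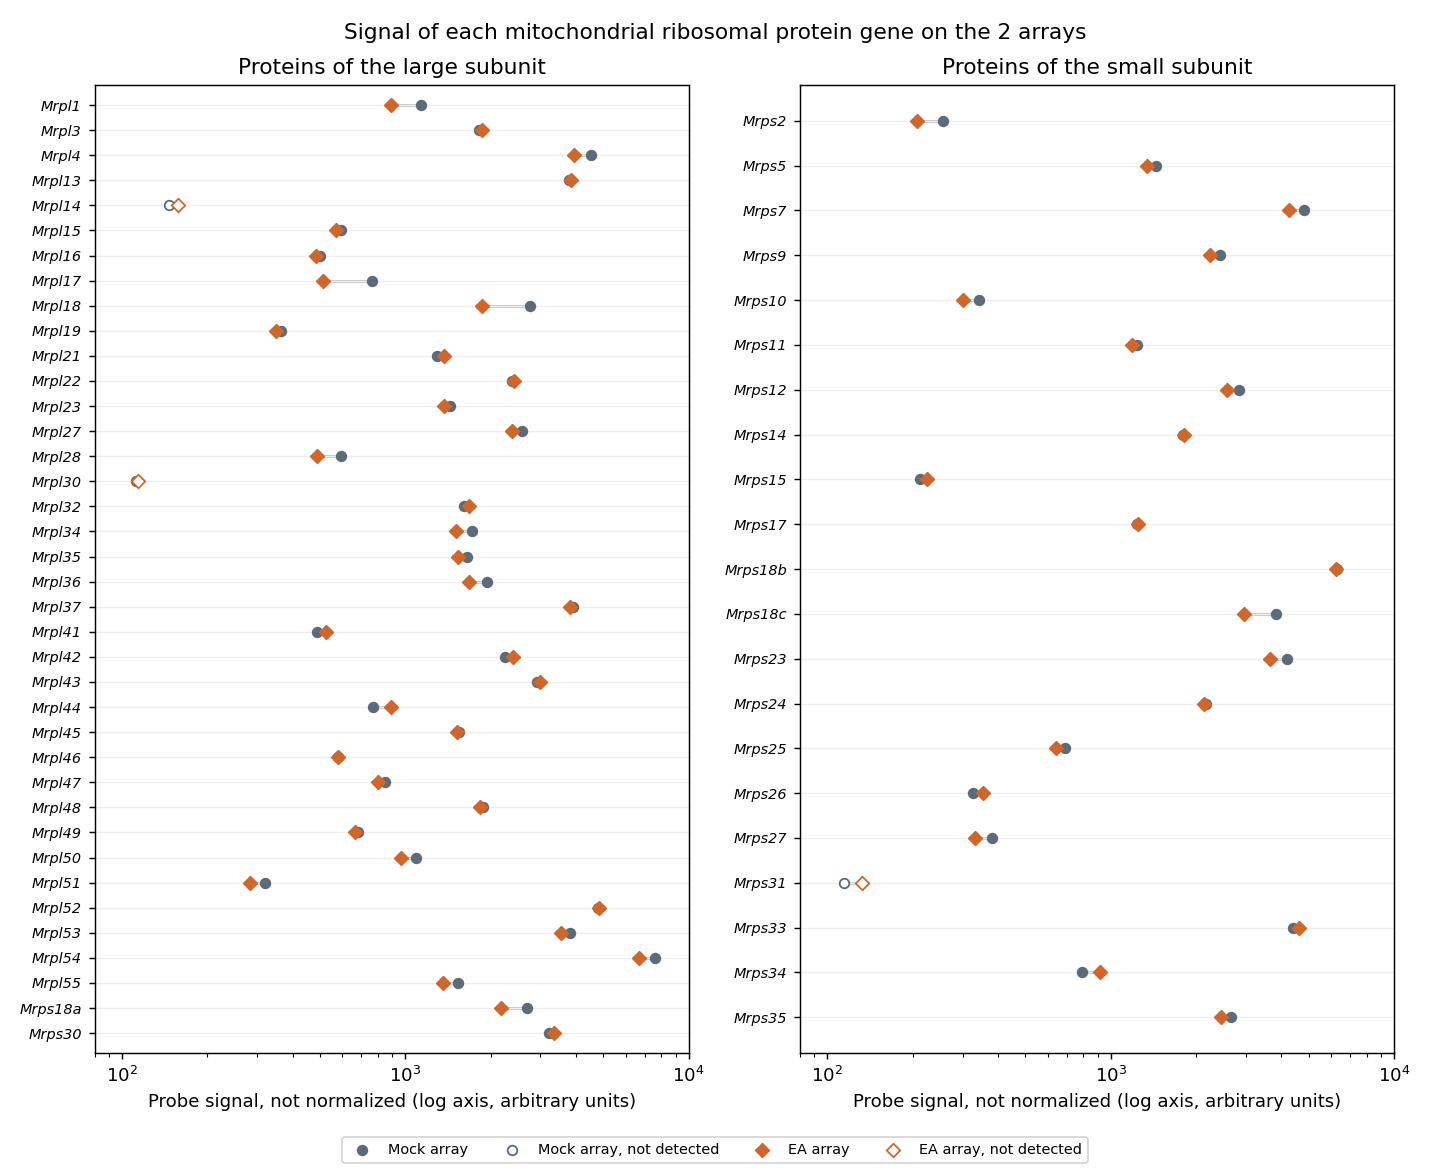
Unnormalized probe signal (log axis) of all 59 members on the Mock array (circles) and the EA array (diamonds), with large-subunit proteins at left and small-subunit proteins at right, and open symbols for probes not detected. The symbols of most genes lie close together, the widest gaps are those of Mrpl17 and Mrpl18, and Mrpl14, Mrpl30 and Mrps31 lie near background. Positions of different genes on the axis are not comparable as transcript levels.

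The family as a whole was almost level between the arrays, with a slight displacement to lower values on the EA array. After background correction and quantile normalization, the median difference of the 56 detected members was -0.12 (log2, EA minus Mock), with quartiles of -0.20 and 0.01. The median of all 5047 genes was -0.06. Of the members, 40 (71.4%) lay below 0, against 58.5% of all genes, and 36 (64.3%) lay below the median gene, against 50% by definition. Before any normalization 38 of the 56 had the lower signal on the EA array, whereas 44.2% of all genes did. That contrast was not matched for signal. Unnormalized values include a background of about 110 for Mock and 115 for EA, which weighs more in dim genes.

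The member median lay below that of all genes in every setting tried, by an amount that varied with the processing. The member median minus that of all genes was -0.07 (log2) as given above, -0.05 in the authors' deposited table and -0.11 with each array scaled to the 75th percentile of its probes. In the settings that keep the same 56 members, 36 to 41 of them were below the median gene. The share below 0 moved with the scaling: with each array scaled to the 75th percentile of all its probes, 54 of the 56 members and 73.2% of all genes lay below 0, and the medians were -0.30 and -0.19. Scaled to the 75th percentile of the probes detected on both arrays, 39 members and 48.6% of all genes did. A single probe on these arrays scattered with an SD of 0.25, measured on 65 pairs of probes for the same gene, which leaves out the variation between animals.

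The members also kept within a narrow range. Differences ran from -0.80 to 0.20 with an SD of 0.21 over members, against 0.43 over all genes. Of the 56, 53 (94.6%) lay within 0.5 of 0, against 85.5% of all genes, and 46 (82.1%) lay within 0.25, against 59.2%. No member was 1.5-fold higher on the EA array, where 6.28% of all genes were. Those at least 1.5-fold lower numbered 3 (5.36%), close to the 3.88% of all genes. None differed 2-fold, which 2.08% of all genes did upward and 0.456% downward. The highest member was exceeded by 20.1% of all genes, and 1.21% were below the lowest. Members of low signal varied more: the SD was 0.24 in the 28 with lower mean signal and 0.16 in the other 28. All genes, with a median unnormalized Mock signal of 466 against 1631 for the members, were not matched to them in signal. How much of the narrower range goes with the brighter signal was not tested.

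**Figure D2:**
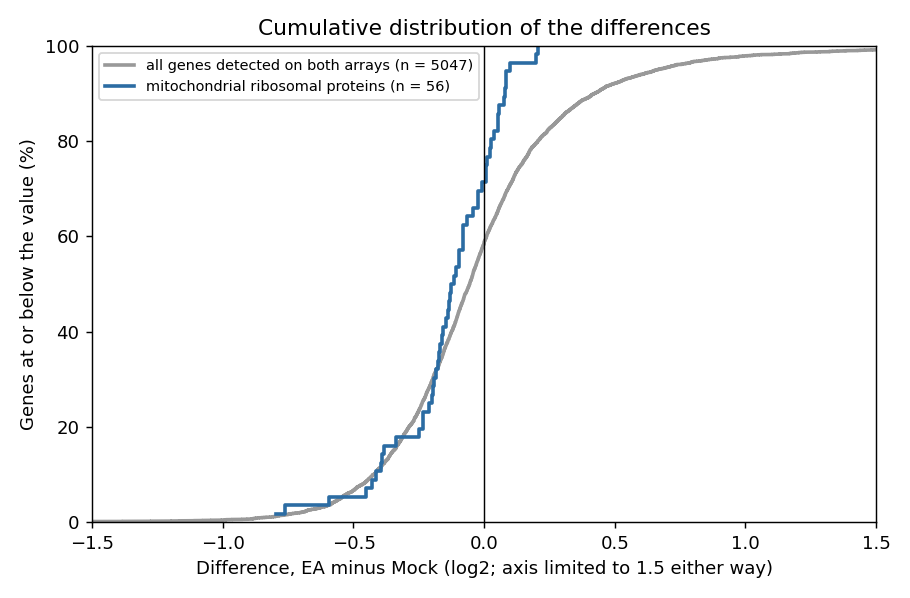
Cumulative share of genes (%) at or below each difference (log2, EA minus Mock) for the 56 detected members and for all 5047 genes detected on both arrays, with the axis limited to 1.5 either way. The curve of the members is steeper, crosses 0 at 71.4% against 58.5%, and ends at 0.20, whereas that of all genes goes on to higher values.

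The lowest differences belonged to 3 genes, all of them homologues of bacterial ribosomal proteins. Mrps2, the counterpart of S2 in the small subunit, read 256 for Mock and 207 for EA. After normalization this was a log2 signal of 7.34 and 6.54, a difference of -0.80 or 1.74-fold lower. Mrps2 lay near background, so the size of its fold follows the background correction: the difference was -0.43 without correction and -0.50 in the authors' deposited table.

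Mrpl17, the counterpart of L17 beside the exit of the nascent chain tunnel, read 761 for Mock and 513 for EA. Its log2 signals were 9.38 and 8.62, a difference of -0.76 or 1.70-fold lower. Over the settings tried it ranged from -0.90 to -0.60, and it alone stayed 1.5-fold lower in all of them. Mrpl18, the counterpart of L18 in the central protuberance, the part of the large subunit that faces the head of the small subunit, read 2746 and 1865. Its log2 signals were 11.38 and 10.79, a difference of -0.59 or 1.51-fold lower, with a range of -0.79 to -0.51. The differences of Mrps2, Mrpl17 and Mrpl18 are the only ones in the family past 0.48, the 95% half-width for 1 probe if the scatter is normal. That is 3 of the 56 detected members (5.36%), against 15.8% of all genes. Such a share is about what a 95% half-width leaves outside by definition, so being past it does not set these 3 apart from probe scatter. In unnormalized signal the EA array stood at 67.4% of the Mock array for Mrpl17 and at 67.9% for Mrpl18.

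The next members were inside that half-width. Mrpl28, another bacterial homologue of the large subunit, read 593 for Mock and 489 for EA, a normalized difference of -0.45. Mrpl1, whose bacterial counterpart forms the mobile stalk beside the exit site for transfer RNA, read 1138 and 891, a difference of -0.43. Mrpl51, a protein gained in mitochondria, read 320 and 283, a difference of -0.41. All were lower on the EA array before and after normalization, by amounts that the scatter between probes also reaches.

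In the small subunit, Mrps27, a pentatricopeptide repeat protein, read 380 for Mock and 331 for EA, with a difference of -0.39. Mrps10, the counterpart of S10 in the head of the subunit, read 342 and 302, with a difference of -0.38. Both were thus lower on the EA array, from modest signals.

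Mammals have 3 paralogues of the bacterial protein S18. Mrps18c, which takes the S18 position in the small subunit, read 3842 for Mock and 2963 for EA, a difference of -0.39. Mrps18a, which is built into the large subunit despite its name, read 2694 and 2185, a difference of -0.34. Mrps18b, which has a place of its own in the small subunit, read 6300 and 6248, a difference of -0.01. The gap between Mrps18b and the other two is under the probe half-width, and paralogues can share hybridisation.

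On the other side of 0 the differences were small. Mrpl44, a large-subunit protein with an RNase III-like fold that sits near the tunnel exit, had the highest value: it read 772 for Mock and 894 for EA, a difference of 0.20. Mrps34, a mitochondria-specific protein needed for a stable small subunit, read 795 and 914, also a difference of 0.20. Both are under the probe scatter.

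The next were Mrpl21 at 0.10, from 1296 for Mock and 1374 for EA, and Mrps30 at 0.08, from 3208 and 3354. Mrps30, like Mrps18a, is a component of the large subunit in known structures. Mrpl42, Mrps33 and Mrps26, all gained in mitochondria, each differed by 0.08. Mrpl3, which reaches toward the catalytic centre, differed by 0.06. With each array scaled to the 75th percentile of all its probes, every one of these apart from Mrpl44 and Mrps34 lay below 0, so their sign depends on the scaling.

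The 5 members with the brightest probes lay on either side of the member median. Mrpl54 read 7625 for Mock and 6697 for EA, a difference of -0.24. Mrpl52, a component of the central protuberance, read 4772 and 4821, a difference of 0.05. Mrps7, the counterpart of S7 in the head, read 4813 and 4257, a difference of -0.16. Mrps33 read 4412 and 4602, a difference of 0.08, and Mrps18b was at -0.01. The remaining members detected on both arrays lay between -0.25, the value of Mrpl36, and 0.05, the value of Mrpl32.

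The subunits had nearly equal medians. The median was -0.12 for the 36 detected proteins of the large subunit and -0.12 for the 20 of the small subunit, with Mrps18a and Mrps30 counted as large. Below 0 lay 25 of the 36 and 15 of the 20.

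By origin the medians were further apart, although the values overlapped widely. The 31 homologues of bacterial proteins had a median of -0.14, with quartiles of -0.22 and -0.07. The 25 proteins named as specific to mitochondria, among which Mrps18a and Mrps18b are counted, had a median of -0.04, with quartiles of -0.20 and 0.05. Below the median gene lay 24 of the 31 and 12 of the 25. The order was the same within the large subunit, at -0.16 over 19 genes and -0.04 over 17, and within the small subunit, at -0.13 over 12 and -0.07 over 8. No test was made of this difference.

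By place in the ribosome, groups chosen after the values were seen, the lowest members stood beside others nearer to 0. Around the tunnel exit, Mrpl17 at -0.76 stood beside Mrpl22 at 0.02, Mrpl23 at -0.08, Mrpl32 at 0.05, Mrpl47 at -0.14, Mrpl45 at -0.02 and Mrpl44 at 0.20. Mrpl45 tethers the ribosome to the inner membrane. In the central protuberance, Mrpl18 at -0.59 stood beside Mrpl46 at -0.08, Mrpl48 at -0.04 and Mrpl52 at 0.05. Near the catalytic centre, Mrpl16 was at -0.17, Mrpl27 at -0.13 and Mrpl3 at 0.06. Mrpl4, whose bacterial counterpart lines the tunnel of the nascent chain, was at -0.19. At the decoding site and the entry of the messenger RNA, Mrps12, the counterpart of S12, was at -0.18, Mrps5 at -0.11 and Mrps24 at -0.06. In the head of the small subunit, Mrps10 was at -0.38, Mrps7 at -0.16, Mrps9 at -0.14, Mrps35 at -0.14, Mrps14 at 0.03 and Mrps33 at 0.08.

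**Figure D3:**
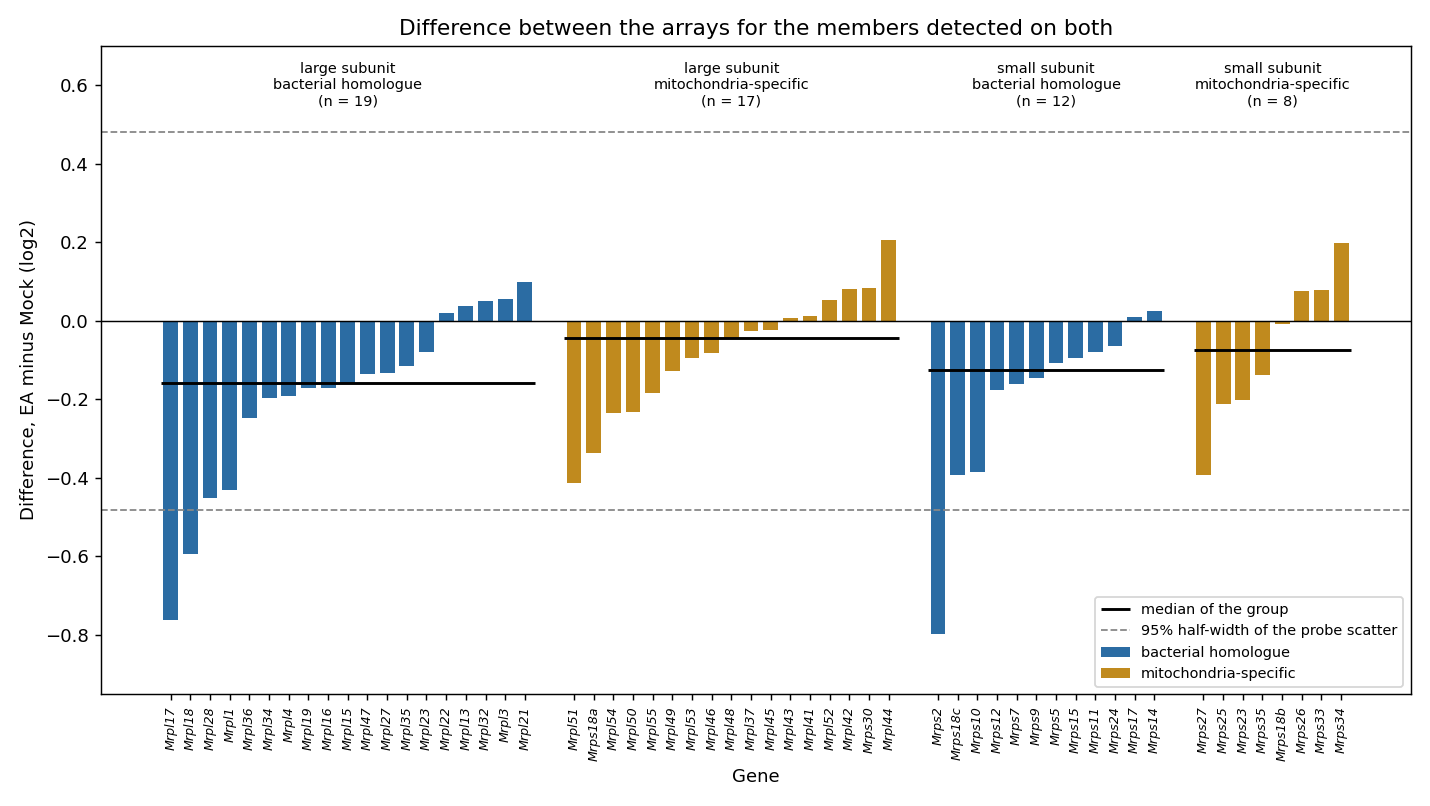
Difference between the arrays (log2, EA minus Mock) for each of the 56 detected members as bars, split by subunit and by origin, with the median of each group as a black line and the 95% half-width of the probe scatter (0.48 either way) as dashed lines. Bars of Mrps2, Mrpl17 and Mrpl18 alone pass the dashed line, all downward, and the group medians lie between -0.16 and -0.04.

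The promoters of these genes were searched for motifs of factors known to drive nuclear genes of mitochondria: NRF-1, the ETS factor GABP and YY1. Windows of 250 bases before to 50 after the annotated start came from RefSeq on GRCr8 and were found for 48 of the 59 members, 1 window per gene. The letters were GCGCATGCG for NRF-1, CCGGAAG for the ETS type and AAGATGGCG for YY1, on both strands and with no mismatch. The NRF-1 motif was in 5 of the 48 promoters (10.4%), against 1.66% of all 27457 promoters and 2.03% of the 19005 of protein-coding genes. The ETS motif was in 16 (33.3%), against 9.22% and 11.2%. The YY1 motif was in 9 (18.8%), against 1.93% and 2.29%. At least 1 of them was in 25 promoters (52.1%), against 14.5% of protein-coding promoters. The promoters used for comparison were not matched to the members in signal or in base composition, so these contrasts need not be particular to the family. No 2 kinds of motif overlapped in a member. A match in letters is not a bound site.

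Promoters with 2 kinds of motif numbered 5, and those of the 3 such genes with the brightest probes are printed to show where the matches lie relative to the start. Each runs 5′ to 3′ on the strand of its gene and ends 30 bases into the transcript, and capitals mark the motif matches.
Mrps18b: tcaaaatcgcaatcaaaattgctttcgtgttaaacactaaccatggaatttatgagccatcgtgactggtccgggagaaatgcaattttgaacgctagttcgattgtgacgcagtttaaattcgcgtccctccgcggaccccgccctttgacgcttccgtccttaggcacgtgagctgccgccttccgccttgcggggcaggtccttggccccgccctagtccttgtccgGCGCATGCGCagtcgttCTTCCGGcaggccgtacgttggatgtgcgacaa
Mrps18a: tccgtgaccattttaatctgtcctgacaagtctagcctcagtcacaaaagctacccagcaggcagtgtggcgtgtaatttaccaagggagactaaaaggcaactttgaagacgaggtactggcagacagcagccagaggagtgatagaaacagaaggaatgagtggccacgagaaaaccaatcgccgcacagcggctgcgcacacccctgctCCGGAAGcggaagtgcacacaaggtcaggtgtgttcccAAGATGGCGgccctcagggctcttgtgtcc
Mrpl36: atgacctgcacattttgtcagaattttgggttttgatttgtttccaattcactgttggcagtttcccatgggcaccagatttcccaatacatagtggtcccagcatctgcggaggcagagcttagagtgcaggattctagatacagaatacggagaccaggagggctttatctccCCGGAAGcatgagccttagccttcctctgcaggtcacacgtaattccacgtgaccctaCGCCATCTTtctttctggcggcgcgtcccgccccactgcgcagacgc

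The window of Mrps18b is chr20:2842756-2843035 on the plus strand, that of Mrps18a chr9:22367351-22367630 on the minus strand, and that of Mrpl36 chr1:31795092-31795371 on the minus strand. In Mrps18b the NRF-1 motif, which reads the same on both strands when extended by a base, begins 20 bases upstream of the start, and an ETS match on the reverse strand begins 3 bases upstream. In Mrps18a the ETS match begins 38 bases upstream and the YY1 match begins at the start itself. In Mrpl36 the ETS match begins 75 bases upstream and a YY1 match on the reverse strand 17 bases upstream.

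Members with and without a motif were set side by side, with no test. The median difference was -0.11 for the 14 detected members with the ETS motif and -0.13 for the 31 without. It was -0.23 for the 9 with the YY1 motif and -0.12 for the 36 without, and 0.02 for the 5 with the NRF-1 motif and -0.13 for the 40 without. The members with the NRF-1 motif include both Mrpl17, at -0.76, and Mrpl44, at 0.20. Of the factors, Yy1 read 283 for Mock and 421 for EA, a normalized difference of 0.69 or 1.62-fold higher, and 0.46 in the authors' deposited table. Gabpa, the DNA-binding subunit of GABP, differed by 0.28, from 192 and 233. Nrf1 read 125 and 136 and was not detected, nor was Ppargc1a, the coactivator PGC-1alpha, at 145 and 151.

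Many of these genes share their start region with a neighbour on the opposite strand. Of the 48 members with a window, 15 (31.2%) had a protein-coding gene transcribed away from them with its start within 1000 bases, against 6.98% of protein-coding genes. Those protein-coding genes were likewise not matched to the members in signal. Mrpl46 and Mrps11 are each other's neighbour, with differences of -0.08 and -0.08. In the 6 distinct pairs with both genes detected, 3 had the same sign. Mrpl18, at -0.59, is paired with Tcp1, a subunit of a cytosolic chaperonin, which read 12.48 and 12.46 on the log2 scale and differed by -0.02. Mrps18b, at -0.01, is paired with Ppp1r10, a regulator of protein phosphatase 1, which differed by 1.17. Mrpl47 is paired with Ndufb5, a subunit of complex I, and both differed by small amounts, -0.14 and -0.13.

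The rest of mitochondrial gene expression was set beside the family. Of the subunits of this ribosome that carry other names, Dap3, Chchd1, Aurkaip1, Ptcd3 and Gadd45gip1, all 5 were detected and none was 1.5-fold different. Their median was -0.11, from Chchd1 at -0.25, which read 11837 for Mock and 10078 for EA, to Ptcd3 at 0.06. They thus lay in the range of the named members.

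The translation factors, which start, lengthen and end the chain, had 8 detected genes with a median of -0.03 and none past 1.5-fold. Their lowest was Mtfmt, which formylates the initiator methionyl-tRNA, at -0.45, while Tufm, the elongation factor Tu of mitochondria, was at -0.03. The assembly list, with factors that modify ribosomal RNA or mature the subunits, had 14 detected genes, a median of -0.06 and 1 gene past 1.5-fold. That gene was Eral1, a GTPase that binds the small ribosomal RNA, at -0.69, or 206 and 180 in signal near background; it was at -0.42 in the authors' deposited table.

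The list of aminoacyl-tRNA synthetases had 8 detected genes of 14 with a probe, a median of 0.02 and none past 1.5-fold. Rars2 was lowest at -0.53. Counted among the detected genes are Gatc, an amidotransferase subunit and not a synthetase, and Gars1 and Kars1, which also serve the cytosol. The list of mitochondrial DNA maintenance and transcription had a median of -0.13, and all 11 detected genes lay below 0. Most lay close to 0: Tfam, which packages mitochondrial DNA, was at -0.0017, the RNA polymerase Polrmt at -0.04, and Mterf2 lowest at -0.43. The median of all genes, at -0.06, was itself below 0, and 6 of the 11 lay below it.

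Subunits of the respiratory chain and of ATP synthase encoded in the nucleus had nearly the same distribution. Their median was -0.10 over 56 detected genes, with an SD of 0.19, and 40 of the 56 lay below 0. Of the 56, 1 was 1.5-fold lower, Atp5mk, a small subunit of ATP synthase, at -0.68, and none was 1.5-fold higher. This list was drawn by symbol and counts Ndufs6-ps1, a pseudogene by its symbol, among the 56. The proteins of the cytosolic ribosome had a median of 0.04 over 57 detected genes, of which 27 lay below 0, and 2 were 1.5-fold higher and 2 lower. These were Rpl7 at 0.79, Rps9 at 0.71, Rpl22l1 at -0.61 and Rpl30 at -3.63. The difference between the medians of the cytosolic and the mitochondrial set, 0.04 and -0.12, was not tested.

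**Figure D4:**
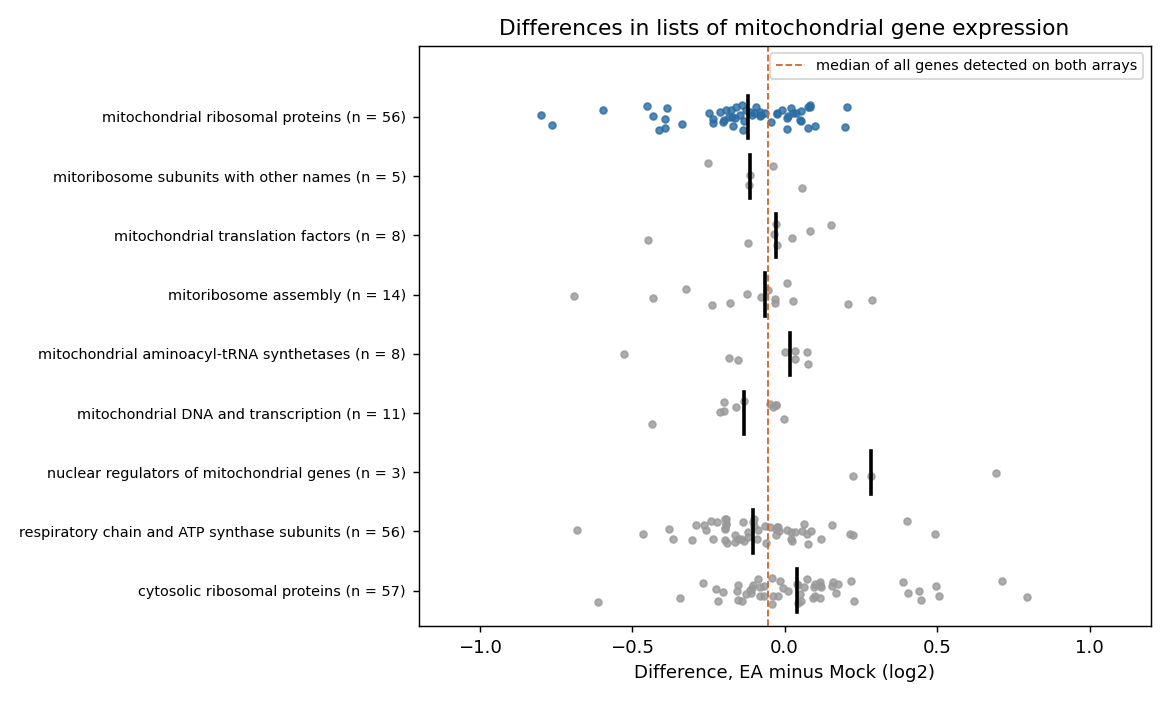
Difference (log2, EA minus Mock) of each gene detected on both arrays, by list, with a black bar at the list median and a dashed line at -0.06, the median of all genes. The mitochondrial ribosomal proteins (blue) and the respiratory chain subunits have medians of -0.12 and -0.10, the cytosolic ribosomal proteins 0.04; Rpl30 at -3.63 lies off the axis.

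Markers of muscle fibres and of other cell types were read beside this family, and several of their summed signals differed between the arrays. The muscle genes Ckm, Acta1, Tnnt3, Actn3 and Myh4, which define the labelled tissue, were all detected. Myh4 differed by 0.70, and the others lay between -0.05 and 0.15. The summed signal of the 7 slow fibre markers was 5125 for Mock and 1332 for EA. Of these, Tnni1 and Myl2 were detected on neither array, and Myl3 and Tnnt1 on the Mock array only. Myh7 differed by -3.60, Tnnc1 by -3.25 and Myoz2 by -1.99. For the 7 fibroblast and matrix markers the summed signal was 10583 and 18829. All sums given here include background. Sums were 1287 and 2087 for 6 endothelial markers, 1253 and 1829 for 5 of macrophages and leukocytes, 15291 and 24866 for 5 of erythrocytes, and 3566 and 3382 for 4 of adipocytes. A few bright probes carry some of these sums, and single markers did not all go the same way. Among erythrocyte genes, Hba-a1 differed by 0.79 and Hbb-b1 by 0.89, whereas Gypc was at -0.23 and Ahsp at -0.15. Among endothelial genes, Cldn5 differed by 1.18 and Sox17 by 1.48, whereas Egfl7 was at -0.30. Among macrophage genes, C1qc differed by 0.98 and C1qa by 0.01. Markers detected on neither array were 2 endothelial (Cdh5 among them), 1 leukocyte (Ptprc), 1 erythrocyte (Alas2) and 2 adipocyte genes. Slow fibres are rich in mitochondria, and the part of the mixture of fibres and cells in the differences of the mitochondrial ribosomal proteins was not tested.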

How the data were processed

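RNA of 2 muscle samples, Mock and EA, was labelled with biotin per the labels' protocols and hybridised to 1 array each. The deposited non-normalized table holds, for 22523 probes, a linear intensity that was not background-subtracted. It also pairs each with a p-value of detection, per the file headers. The deposited series table holds a second intensity column per array that ranks the probes identically (Spearman rho = 1) with medians of 137.3 and 137.5; its scale was taken as linear. Its normalization and the scanner software are not given in the sources used. The number of arrays limits the precision.

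Background was corrected with limma 3.58.1 (nec, from the detection p-values, offset 16) in R 4.3.3, arrays were quantile normalized, and differences are log2 EA minus Mock. The pipeline was also run on the Mock array and a simulated copy of it with small noise and some probes raised. That copy has no array-wide difference in intensity. It could not show whether shifts as small as those of the members are recovered. Summaries used Python 3.11.15 with numpy 2.4.6 and pandas 2.3.3, and figures matplotlib 3.10.9. Of the probes, 13793 had 1 gene symbol, and the other 8730, without exactly 1 symbol, were left out of the gene values. Entrez identifiers matched 13752 to RefSeq (GRCr8) and accessions 5, while 36 kept their old symbol. A gene with several probes took the brightest. Members, lists and motifs were chosen with earlier results of these data known. The rule for names allowed every member, with values for the 8 highest, the 8 lowest and the 5 brightest, and other lists' genes past 1.5-fold; further genes of those lists, the S18 paralogues, the genes named by site and the neighbours were chosen after their values were seen. Promoters are the first window listed per gene. Alternatives were no background correction, an offset of 50, scaling to the 75th percentile, the deposited table, a detection p of 0.05, the mean of all probes and no detection filter.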

Additional observations from a re-analysis of the deposited data

How the results depend on the processing

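The count of members 1.5-fold lower varied with the processing, and so did the share of all genes. It was 1 (1.79%) without background correction, against 0.892% of all genes, 1 (1.79%) in the authors' deposited table, against 0.872%, in both Mrpl17, and 5 (8.93%) with each array scaled to the 75th percentile of all its probes, against 7.59%. That scaling put the median at -0.30 for all members, -0.29 for the large and -0.33 for the small subunit, against -0.19 for all genes; scaled to the 75th percentile of the probes detected on both arrays, an alternative added after seeing the data, the member median was -0.10 and that of all genes 0.01. Under the first scaling 14 of the 16 members above 0 turned negative, among them Mrpl3 at -0.16, Mrps26 at -0.068, Mrps33 at -0.14, Mrpl42 at -0.11, Mrps30 at -0.14, Mrpl21 at -0.12 and Mrpl52 at -0.19, and the others were Mrpl13, Mrpl22, Mrpl32, Mrpl41, Mrpl43, Mrps14 and Mrps17. Under the second, Mrps15 turned positive, at 0.09. The count of members 1.5-fold lower stayed at 3 (5.36%) there, against 2.14% of all genes. No member was 1.5-fold higher under any alternative. Averaging all probes of a gene could not change a member, since each has 1 probe. Members of low signal, such as Mrps2, are limited by background. No paired analysis was possible because each group has 1 array.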
